A study of Drosophila melanogaster with 20 samples.

Results

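The genes described here are the histone deacetylases HDAC1, HDAC3, HDAC4 and HDAC6 and the sirtuins Sirt1, Sirt2, Sirt4, Sirt6 and Sirt7, a set of 9 genes among the 17807 gene rows of an RNA-seq count table from Drosophila melanogaster embryos. They were taken by name, through their FlyBase identifiers, and not by a rule on measured values, but with earlier results of these data known. Of the 9 genes, 8 passed the filter on low counts that left 10904 genes for testing, and HDAC3 did not.

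Gcn5 is a histone acetyltransferase whose complexes differ in the Ada2 protein they contain. The Ada2b-PA isoform forms CHAT and the Ada2b-PB isoform forms SAGA and ADA, so the design asks how transcript levels respond to the loss of each kind of complex. The 5 genotypes had 4 libraries each, 20 in all, and each library was made from a pool of whole embryos labelled stage 12 to 14, except WT replicate 3, whose label gives stage 12 to 15. *Ada2b* null embryos carried the null alleles Ada2b1 and Ada2b842 in trans. PA embryos carried the same null alleles and a single-copy Ada2b-PA transgene, so they had CHAT and lacked SAGA and ADA. PB embryos carried these alleles and a single-copy Ada2b-PB transgene, so they lacked CHAT. PA+PB embryos carried the alleles with both transgenes and served as a control, together with WT embryos that carried none of the *Ada2b* alleles. All genotypes carried the neuronal driver elav-Gal4 and a UAS-GFP reporter, which was used to pick embryos by their fluorescence, and the transgenes were driven by genomic *Ada2b* regulatory sequences. The null embryos had heterozygous siblings, so their mothers were not null and could supply *Ada2b* products. Whole embryos were sequenced, so fewer cells of a type and less RNA per cell cannot be told apart.

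Deacetylases remove the acetyl groups that acetyltransferases such as Gcn5 add to histones and other proteins. The classical enzymes use zinc for catalysis, and the class I members among them work mostly inside corepressor complexes on chromatin. Sirtuins use NAD+ instead, which ties their activity to metabolism, and different sirtuins act in the nucleus, the cytoplasm or the mitochondria.

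The libraries held between 1665636 and 35678749 counts on genes. They held 17874297 to 29013029 counts in the null, 2569525 to 10772137 in PA, 1665636 to 33363718 in PB, 4828612 to 13973822 in PA+PB and 27944272 to 35678749 in WT. The share of reads assigned to genes also differed with genotype. It was 14.7 to 24.5% in the null, 2.39 to 8.89% in PA, 2.53 to 27.3% in PB, 10.4 to 20.3% in PA+PB and 19.6 to 32.2% in WT. Between 11601 and 12061 genes had a count in null libraries, against 5389 to 8740 in PA, 4739 to 10547 in PB, 7295 to 11352 in PA+PB and 10061 to 12126 in WT. A count of 3, taken as the floor of detection, was worth 0.0984 to 1.4 CPM (read counts scaled to library size with TMM factors) depending on the library, and these limits cover counting error only. *Ada2b* itself was lowest in the libraries labelled null, with 30.7 to 47.1 CPM in the null, 185 to 248 in PA, 106 to 192 in PB, 202 to 368 in PA+PB and 109 to 175 in WT.

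HDAC3, the catalytic partner of the SMRTER corepressor, had 0 counts in all 20 libraries. It lies on chromosome 3R at 5472810 to 5474600 on the minus strand (dm6), and all 1660 of its exonic bases are shared on that strand with a second annotated gene, CG45100, which also had 0 counts in all 20 libraries. In its default mode htseq-count gives no count to a read that overlaps 2 genes. The value of 0 was therefore not read as absence of HDAC3 RNA, and nothing further is reported for this gene.

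The other 8 genes fell into a well-counted and a poorly counted group. HDAC1, HDAC4, HDAC6 and Sirt1 had 0 of 80 values at 0. Sirt7 was at 0 in 1 of 20 libraries, PB replicate 1. Sirt2, Sirt4 and Sirt6 were at 0 in 18 of 60 values, of which 15 were among the 24 values from PA and PB embryos. The lowest count above 0 for any of the 8 genes was 4 and the next was 23. PA and PB libraries were also the ones with the fewest genes detected, and the part of depth and detection in these zeros was not tested.

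**Figure D1:**
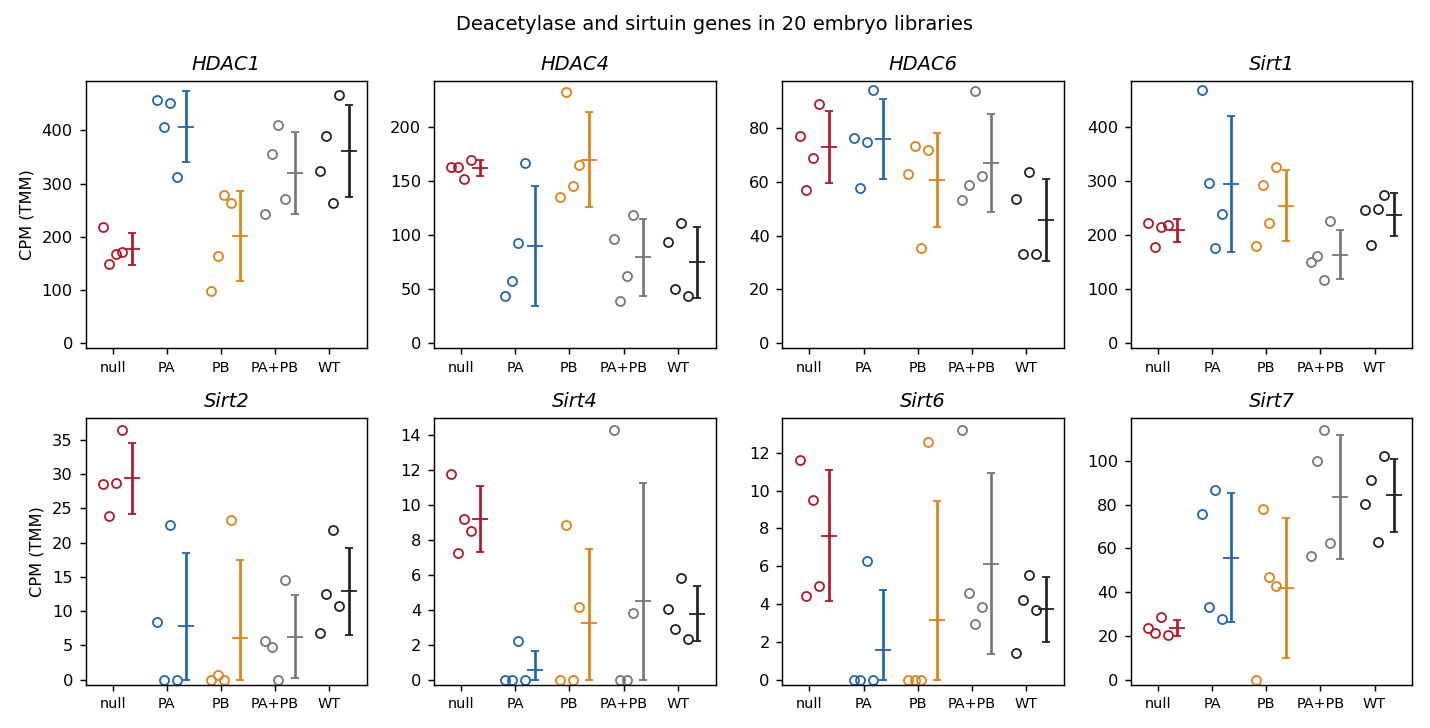
CPM (TMM-scaled, linear axis) of the 8 tested genes in each of the 20 libraries, with 4 open circles per genotype in the order of replicate number and the mean ± SD beside them (lower bars stop at 0). The 4 null libraries lie between 148 and 219 CPM for HDAC1 and between 20.4 and 28.7 CPM for Sirt7, below every PA+PB and WT library.

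Levels between genes were compared as CPM per kb of annotated exon. HDAC1 was the highest at 138 ± 52.9 CPM per kb (mean ± SD over 20 libraries), followed by Sirt1 at 60.7 ± 20 CPM per kb. Sirt7 at 18.9 ± 10.7, HDAC4 at 15.9 ± 7.59 and HDAC6 at 12.3 ± 3.41 CPM per kb came next, and these neighbours did not differ by more than their spread. Sirt2 at 5.45 ± 5.12, Sirt6 at 3.98 ± 3.89 and Sirt4 at 3.4 ± 3.52 CPM per kb were the lowest and also lay within their spread of each other. The order was not the same in each genotype. In the null, HDAC4 at 22.4 ± 1.05 CPM per kb stood above Sirt7 at 7.69 ± 1.23 CPM per kb (SD, n = 4 each), whereas in WT HDAC4 had 10.3 ± 4.58 and Sirt7 27.5 ± 5.45 CPM per kb.

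**Figure D2:**
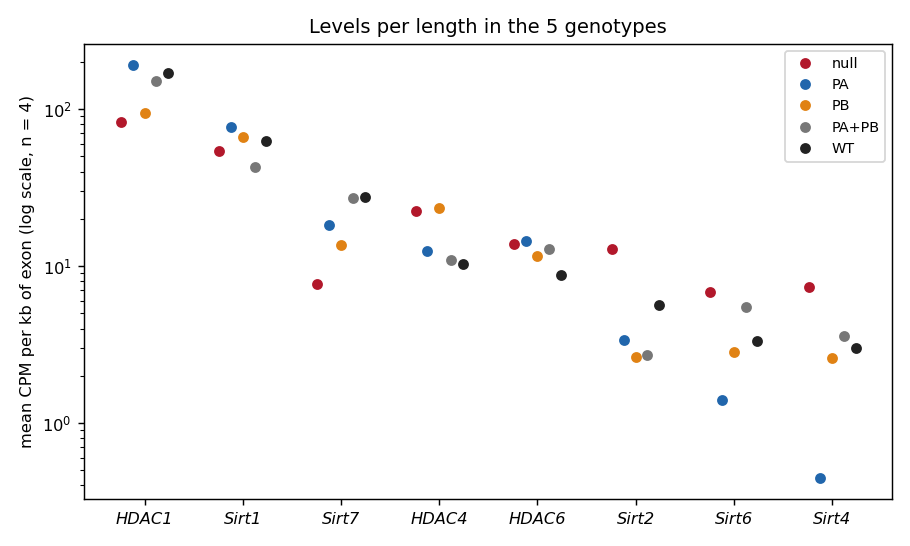
Mean level of the 8 tested genes in CPM per kb of exon on a log axis, with a point per genotype (n = 4 libraries) and the genes ordered by their mean over all 20 libraries. HDAC1 is highest in every genotype, with 83.1 CPM per kb in the null and 170 in WT.

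None of the 8 genes was called in any of the 11 contrasts by edgeR's quasi-likelihood test, where a call needed an FDR under 0.05 and a log2 fold change (FC) of at least 0.5. For the null against both controls, 0 of 8 genes were called, where 2.7% of all tested genes were. With DESeq2's Wald test 1 of the 8 was called, Sirt7, where 5.77% of all genes were. At an unadjusted p under 0.05 against both controls HDAC1 and Sirt7 passed, where 10.8% of all tested genes did. The single contrasts called 4.59% of all genes against WT and 3.38% against PA+PB. By CPM alone, HDAC1 and Sirt7 had all 4 null libraries below all 8 control libraries, as did 14% of all tested genes. HDAC4 and Sirt2 had all 4 null libraries above the 8 controls, as did 10.2% of all tested genes. The median log2 FC of the 8 genes in the null was −0.68 against WT and −0.43 against PA+PB, beside −0.18 and −0.27 over all tested genes. The sign of the members' median depended on the fit: without the factor of unwanted variation, a term estimated from differences between replicates, it was 0.86 against WT and 0.33 against PA+PB.

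HDAC1 (FBgn0015805, also known as Rpd3) is the class I enzyme of the Sin3, NuRD and CoREST complexes, and lies on chromosome 3L at 4626734 to 4629467 on the plus strand. It had 219, 148, 167 and 172 CPM in the null, 458, 407, 451 and 312 CPM in PA, 98.6, 164, 278 and 263 CPM in PB, 243, 356, 410 and 270 CPM in PA+PB, and 324, 389, 263 and 466 CPM in WT. The null libraries lay below all PA, PA+PB and WT libraries and overlapped those of PB. The null had 177 ± 30.3 CPM, against 320 ± 77.1 CPM in PA+PB and 361 ± 87.2 CPM in WT (SD, n = 4 each). The log2 FC of the null was −1.10 (SE 0.32, edgeR FDR 0.0564) against WT and −0.98 (SE 0.34, FDR 0.118) against PA+PB. Neither passed the threshold, and the first passed it in 4 of 9 other ways of fitting, with FDR values of 0.0101 to 0.313. Leaving out single libraries also moved this call, which passed in 6 of 20 such fits: without PA replicate 2, PB replicates 1 or 3, PA+PB replicates 1 or 3, or WT replicate 3. The FDR over the 20 fits was 0.0231 to 0.198.

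Sirt7 (FBgn0039631, on chromosome 3R at 29055927 to 29059204, plus strand) is related to a mammalian sirtuin found in the nucleolus. It had 23.8, 21.1, 28.7 and 20.4 CPM in the null, 75.7, 33.1, 86.6 and 27.9 CPM in PA, 0, 77.9, 47 and 42.7 CPM in PB, 56.6, 100, 114 and 62.3 CPM in PA+PB, and 80.3, 91.1, 63.1 and 102 CPM in WT. Every control library was above every null library, while PA and PB libraries were spread over a wider range. The null had 23.5 ± 3.77 CPM, against 83.4 ± 28.4 CPM in PA+PB and 84.2 ± 16.7 CPM in WT (SD, n = 4 each). The fitted log2 FC of the null was −2.24 (SE 0.80, edgeR FDR 0.142) against WT and −2.72 (SE 0.91, FDR 0.108) against PA+PB. PB replicate 1, the library with the fewest counts, decided this call: without it, both contrasts passed, with a log2 FC of −1.85 (FDR 0.0154) and −1.83 (FDR 0.0496). Over 9 other ways of fitting, each contrast passed in 4, with FDR values of 0.00119 to 0.356 against WT and 0.00169 to 0.29 against PA+PB.

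HDAC4 (FBgn0041210, chromosome X at 13262687 to 13285632, minus strand) is the class IIa enzyme, which moves between nucleus and cytoplasm and binds Mef2. It had 163, 163, 152 and 170 CPM in the null, 43.1, 57.2, 92.3 and 167 CPM in PA, 135, 233, 146 and 165 CPM in PB, 96.5, 39.2, 62.5 and 119 CPM in PA+PB, and 93.8, 50, 111 and 43.4 CPM in WT. Null and PB libraries were all above the 8 control libraries, and PA libraries overlapped both sets. The log2 FC of the null was 1.03 (SE 0.44, edgeR FDR 0.265) against WT and 0.87 (SE 0.45, FDR 0.333) against PA+PB, so neither passed. DESeq2's Wald test called HDAC4 against WT (log2 FC 1.27, FDR 0.027) and not against PA+PB (FDR 0.102).

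HDAC6 (FBgn0026428, chromosome X at 15333310 to 15340360, plus strand) is a largely cytoplasmic class IIb deacetylase whose substrates include tubulin. Its range was 57.1 to 89.1 CPM in the null, 57.9 to 94.4 CPM in PA, 35.5 to 73.2 CPM in PB, 53.2 to 93.8 CPM in PA+PB and 33 to 63.8 CPM in WT. All 5 ranges overlapped, and the log2 FC of the null against WT was 0.66 (SE 0.43, edgeR FDR 0.585). DESeq2's Wald test called this contrast (log2 FC 0.90, FDR 0.0249) and not the one against PA+PB (FDR 0.641).

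Sirt1 (FBgn0024291, also known as Sir2, chromosome 2L at 13165564 to 13169551, plus strand) is a nuclear sirtuin with a role in silencing. It had 221, 177, 214 and 219 CPM in the null, 467, 295, 176 and 238 CPM in PA, 180, 292, 221 and 325 CPM in PB, 150, 161, 117 and 225 CPM in PA+PB, and 246, 181, 248 and 274 CPM in WT. The null lay within the range of its controls, with a log2 FC of −0.27 (SE 0.31, edgeR FDR 0.843) against WT and 0.23 (SE 0.32, FDR 0.802) against PA+PB.

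**Figure D3:**
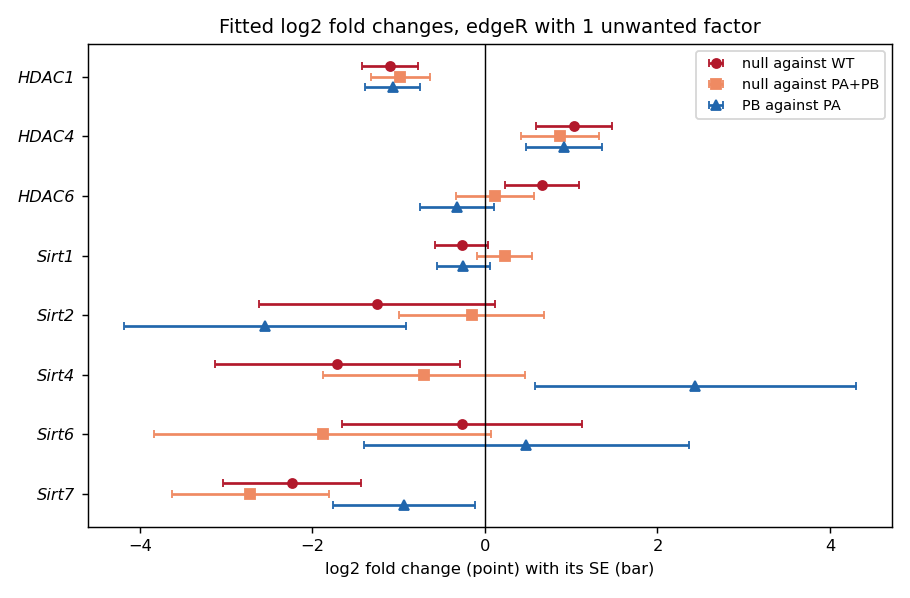
Fitted log2 FC (points) with the SE (bars) of the 8 tested genes for the null against WT, the null against PA+PB and PB against PA. HDAC1 lies near −1 in all 3 contrasts and Sirt7 lies at −2.24 and −2.72 in the null, while Sirt4 and Sirt6 have bars wider than 1 log2 unit to each side in every contrast.

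The sign of the fitted change of Sirt2 went against its CPM. Sirt2 (FBgn0038788, chromosome 3R at 20328465 to 20330915, plus strand) is related to a mammalian sirtuin that acts mostly in the cytoplasm. It had 28.5, 23.9, 28.7 and 36.4 CPM in the null, 8.45, 0, 22.6 and 0 CPM in PA, 0, 0.724, 0 and 23.3 CPM in PB, 5.7, 4.74, 0 and 14.5 CPM in PA+PB, and 6.8, 12.5, 21.8 and 10.7 CPM in WT. Every null library was above every other library. All null libraries lay above the 8 controls for 10.2% of all tested genes, and above all PA libraries for 28.2%. The share of genes with the null above every other library was not computed. The log2 FC against WT was −1.25 (SE 1.37, edgeR FDR 0.83) with 1 factor of unwanted variation in the model, and 1.18 (FDR 0.873) without it. Against PA+PB it was −0.15 (SE 0.84, FDR 0.957) with the factor and 2.23 (FDR 0.658) without it, and the test passed in none of these fits. The factor was −0.85 to −0.81 in the null libraries, −0.22 to 1.97 in PA, −0.44 to 2.95 in PB, −0.79 to 0.92 in PA+PB and −0.78 to −0.12 in WT, so it varied with genotype. It also followed the number of genes with a count (Pearson's r = −0.9 and Spearman's rho = −0.89 over the 20 libraries, which differ in depth), so every fitted value with the factor is adjusted for a quantity that moved with detection. The part of the zeros in the change of sign was not tested.

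Sirt4 (FBgn0029783, chromosome X at 5664628 to 5665940, minus strand) is a mitochondrial sirtuin. It had 11.8, 7.26, 9.21 and 8.54 CPM in the null, 0, 0, 2.23 and 0 CPM in PA, 0, 8.87, 0 and 4.17 CPM in PB, 14.3, 0, 0 and 3.82 CPM in PA+PB, and 4.07, 2.88, 5.84 and 2.32 CPM in WT. The null was above all WT and PA libraries but overlapped PB, through PB replicate 2, and was not above PA+PB replicate 1. All PA libraries were below all null libraries for 28.2% of all tested genes. The log2 FC against WT was −1.71 (SE 1.42, edgeR FDR 0.725) with the factor and 1.28 (FDR 0.877) without it.

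Sirt6 (FBgn0037802, chromosome 3R at 10255349 to 10261849, minus strand) is related to a chromatin-bound mammalian sirtuin with roles in genome maintenance. It had 11.6, 4.42, 9.52 and 4.97 CPM in the null, 0, 0, 6.3 and 0 CPM in PA, 0, 0, 0 and 12.6 CPM in PB, 13.2, 4.57, 2.93 and 3.82 CPM in PA+PB, and 1.43, 4.19, 5.53 and 3.68 CPM in WT. Null libraries overlapped those of both controls, and the log2 FC against WT was −0.27 (SE 1.39, edgeR FDR 0.975) with the factor and 1.04 (FDR 0.892) without it.

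**Figure D4:**
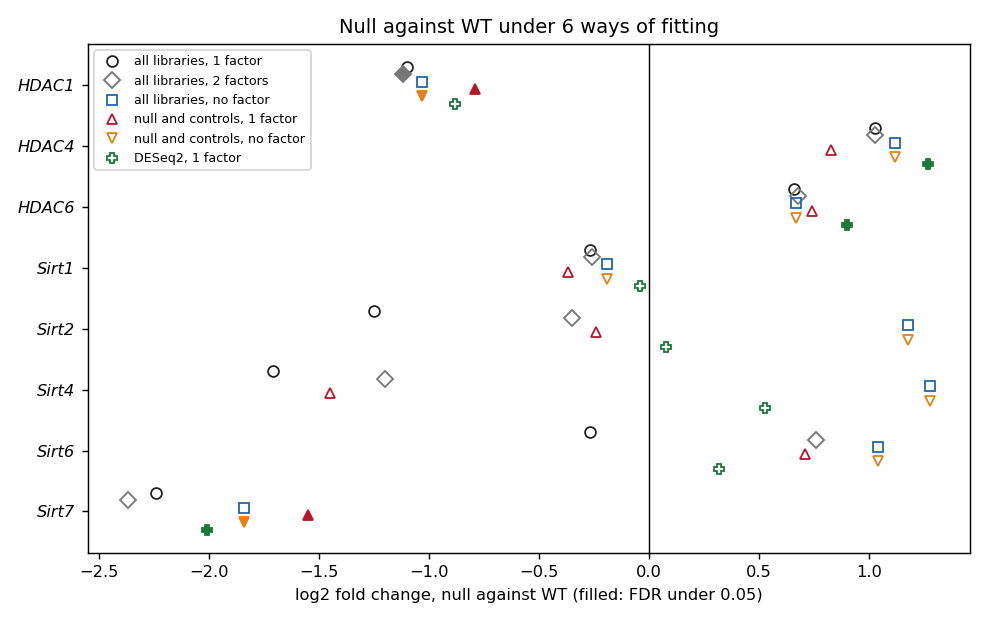
Log2 FC of the null against WT for the 8 tested genes under 6 ways of fitting, filled where the gene was called. HDAC1 and Sirt7 are negative and HDAC4 and HDAC6 positive in all 6, whereas Sirt2, Sirt4 and Sirt6 lie on both sides of 0 (Sirt2 at −1.25 with 1 factor and 1.18 with none).

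In embryos with Ada2b-PA alone, 0 of the 8 genes were called against both controls, where 0.0917% of all tested genes were, and none passed an unadjusted p under 0.05 against both controls, where 11% did. DESeq2's Wald test called none of the 8 either, where 5.86% of all genes were called. The separate contrasts called 0.11% of all genes against WT and 0.532% against PA+PB. None of the 8 had all PA libraries above the controls (1.16% of all genes) or all below (4.93%). The smallest p was that of Sirt1 against PA+PB, with a log2 FC of 1.03 (SE 0.33, edgeR FDR 0.116). This value depended on PA replicate 3, which had the lowest Sirt1 level of the PA libraries: without it the contrast passed (log2 FC 1.27, FDR 0.0334), and without the 7 libraries under 8000 genes, which leaves PA replicate 3 as the only PA library, the log2 FC was −0.03 (FDR 1).

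In embryos with Ada2b-PB alone, 0 of the 8 genes were called against both controls, where 0.752% of all tested genes were. HDAC4 passed an unadjusted p under 0.05 against both controls, where 17.3% of all genes did, and was the 1 gene called by DESeq2's Wald test, which called 9.31% of all genes. It had 170 ± 43.8 CPM in PB, against 79.4 ± 35.6 CPM in PA+PB and 74.6 ± 33.1 CPM in WT (SD, n = 4 each). Its log2 FC was 1.5 (SE 0.49, edgeR FDR 0.114) against WT and 1.34 (SE 0.47, FDR 0.0759) against PA+PB, where 0.835% and 6.59% of all genes were called. All 4 PB libraries were above the 8 controls for HDAC4, as for 1.67% of all genes, and no member had all PB libraries below them, as 8.62% of all genes had. Over 9 other ways of fitting the FDR was 0.0172 to 0.343 against WT and 0.0289 to 0.289 against PA+PB.

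Adding Ada2b-PA to the null was tested by PA against null. None of the 8 genes was called, where 2.14% of all genes were. DESeq2's Wald test also called none, where 8.85% of all genes were called. HDAC1, Sirt1 and Sirt7 passed an unadjusted p under 0.05, where 17.9% of all genes did. HDAC1 had 407 ± 67.2 CPM in PA, against 177 ± 30.3 CPM in the null (SD, n = 4 each), with all PA libraries above all null libraries, as for 9.29% of all genes. Its log2 FC was 1.42 (SE 0.38, edgeR FDR 0.0526), beside a median of 0.48 over all genes, or 0.24 with DESeq2's size factors, under which HDAC1 was at 1.14 (FDR 0.187). The call passed in 4 of 9 other ways of fitting, with FDR values of 0.00446 to 0.349. It also passed in 5 of 20 fits that left out a library, namely PA replicate 2, PB replicate 3 or PA+PB replicates 1, 3 or 4. Sirt7 had a log2 FC of 2.46 (SE 1, FDR 0.199), and 1.25 (FDR 0.372) without the factor, and Sirt1 of 0.80 (SE 0.37, FDR 0.265). Sirt2 and Sirt4 had all PA libraries below all null libraries in CPM, as did 28.2% of all genes. Their fitted log2 FC ran the other way, at 2.79 (FDR 0.457) for Sirt2 and 0.99 (FDR 0.713) for Sirt4, and was −1.91 (FDR 0.563) and −3.96 (FDR 0.251) without the factor.

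Adding Ada2b-PB to the null was tested by PB against null, where none of the 8 genes was called (0.138% of all genes) and none passed an unadjusted p under 0.05 (13.5%). DESeq2's Wald test called none, where 3.44% of all genes were called. HDAC1 had 201 ± 84.7 CPM in PB, against 177 ± 30.3 CPM in the null (SD, n = 4 each), with a log2 FC of 0.36 (SE 0.35, edgeR FDR 0.698). The contrast shares its null libraries with the contrast of PA against null.

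Between the isoforms, PB against PA called none of the 8 genes, where 0.00917% of all genes were called. HDAC1 and HDAC4 passed an unadjusted p under 0.05, where 21.4% of all genes did, and DESeq2's Wald test called HDAC1 and 12.8% of all genes. HDAC1 had 98.6 to 278 CPM in PB, against 312 to 458 CPM in PA, so that all PB libraries were below all PA libraries, as for 2.06% of all genes, and no member showed the reverse order, as 1.71% of all genes did. Its log2 FC was −1.07 (SE 0.32, edgeR FDR 0.138). HDAC4 had a log2 FC of 0.92 (SE 0.44, FDR 0.229).

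The controls were also set against each other. WT against PA+PB called none of the 8 genes (0.0183% of all genes) and none passed an unadjusted p under 0.05 (3.65%). DESeq2's Wald test did not call any either (0.477%). HDAC1 had 361 ± 87.2 CPM in WT, against 320 ± 77.1 CPM in PA+PB (SD, n = 4 each), with a log2 FC of 0.11 (SE 0.32, edgeR FDR 1).

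The interaction term asked whether the change on adding Ada2b-PB differs with and without Ada2b-PA, as (PA+PB minus PA) minus (PB minus null). It called none of the 8 genes, where 3.13% of all genes were called. DESeq2's Wald test also called none, where 9.72% of all genes were called. Sirt1 passed an unadjusted p under 0.05, where 20.4% of all genes did, with a value of −1.57 on the log2 scale (SE 0.53, edgeR FDR 0.104), beside a median of −0.63 over all genes, or −0.35 with DESeq2's size factors. It was called without PA replicate 3 (−1.91, FDR 0.0286), and was −0.66 (FDR 0.6) without the 7 libraries under 8000 genes.

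Partner genes of HDAC1, HDAC3 and HDAC4, and the class IV deacetylase HDAC11, were examined as a list of 32 named genes in 7 groups. Of these, 31 were matched and tested. Against both controls, 4 of the 31 fell in the null and 0 rose, beside 2.7% of all genes called. At an unadjusted p under 0.05 against both controls, where 10.8% of all genes passed, 12 were lower and 0 higher. Under other settings 1 to 12 of the 31 were called against both controls, the lowest with no filter on low counts, where 0.369% of all genes were called, and the highest with only the compared groups and no factor, where 11.7% were. The count was 0 without null replicate 2, 1 without null replicates 1 or 3 or PA+PB replicate 2, 2 without null replicate 4 or WT replicate 1, 7 without PA+PB replicate 1, and 3 to 6 without any other library. The 4 were Kdm5, a histone demethylase linked to the Sin3 complex, Mi-2, the remodelling ATPase of NuRD, ebi, a component of the SMRTER and HDAC3 corepressor, and gro, the Groucho corepressor, which recruits HDAC1.

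Kdm5 fell to 338 ± 57.8 CPM in the null (SD, n = 4), against 1080 ± 275 CPM over the controls (SD, n = 8), with a log2 FC of −1.98 (SE 0.29, edgeR FDR 0.00165) against WT and −1.59 (SE 0.30, FDR 0.0107) against PA+PB. Mi-2 fell to 705 ± 100 CPM in the null, against 1430 ± 254 CPM over the controls, with log2 FC values of −1.11 (FDR 0.00742) and −0.89 (FDR 0.0398). The levels of ebi were 67.1 ± 5.73 CPM in the null and 407 ± 164 CPM over the controls, with log2 FC values of −2.48 (FDR 0.0202) and −2.60 (FDR 0.0319). For gro they were 271 ± 31.3 CPM in the null and 784 ± 191 CPM over the controls, with log2 FC values of −1.59 (FDR 0.00407) and −1.40 (FDR 0.0155). Against the same null libraries, all 4 were called higher in PA, where 2.14% of all genes were called. The log2 FC values were 2.06 for Kdm5, 1.56 for Mi-2, 3.02 for ebi and 1.55 for gro. The 4 were picked as low in these null libraries, so this is not separate support. With DESeq2's size factors or with no filter, 2 of the 31 partner genes were called for PA against null (0.266% and 0.211% of all genes). In PB against null Kdm5, Mi-2, ebi and gro were at 1.40, 1.13, 1.82 and 0.76 (FDR 0.0812 to 0.288). PB against PA called none of the 4 (FDR 0.15 to 0.265), so a difference between the isoforms was not shown.

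By group, 1 of 10 Sin3 complex genes, 1 of 7 NuRD and dMec genes, 0 of 4 CoREST and LINT genes, 1 of 2 HDAC3 corepressor genes, 1 of 3 linker corepressors and 0 of 5 class IIa partners fell against both controls. Their median log2 FC in the null against WT was −0.81, −1.09, −0.53, −1.93, −1.59 and 0.21 in that order, beside −0.18 over all tested genes. Against PA+PB the medians were −0.66, −0.89, −0.34, −1.7, −1.29 and 0.12, beside −0.27 over all tested genes. Smr, which encodes SMRTER, fell against WT (log2 FC −1.38, edgeR FDR 0.00374) and was at −0.79 (FDR 0.0683) against PA+PB. H, which links Groucho and CtBP to DNA-bound Su(H), fell against WT (log2 FC −2, FDR 0.00407) and was at −1.29 (FDR 0.0518) against PA+PB, whereas 14-3-3epsilon, a chaperone of phosphorylated class IIa enzymes in mammals, fell against PA+PB (log2 FC −1.78, FDR 0.0155) and was at −1.17 (FDR 0.0537) against WT. Mef2 is the transcription factor bound by HDAC4 and was named here after its values were seen. Its log2 FC in the null was 0.67 (edgeR FDR 0.698) against WT and 1.15 (FDR 0.277) against PA+PB. HDAC11, the class IV deacetylase, was close to the limit of detection with at most 5.18 CPM in any library. The interaction term called 3 of the 31 partner genes, where 3.13% of all genes were called, and 0 to 5 under other settings. The 3 were Kdm5 (−1.87, edgeR FDR 0.0311), Mi-2 (−1.8, FDR 0.0145) and MEP-1 (9.09, FDR 0.0294). MEP-1 had at most 0.872 CPM in PA and 8.1 CPM in PB, against 17.5 to 58.5 CPM over the controls. No partner gene was called against both controls in PA or in PB embryos, where 0.0917% and 0.752% of all genes were. Under other settings 0 to 3 were called in PA and 0 to 6 in PB. At an unadjusted p under 0.05 against both, 4 were lower and 0 higher in PA (11% of all genes). In PB 8 were lower and 1 higher (17.3%). In PB, H was lower against WT alone (log2 FC −1.73, edgeR FDR 0.0374), where 0.835% were called. Bin1 (−1.93, FDR 0.0212) and 14-3-3epsilon (−1.39, FDR 0.0227) were lower against PA+PB alone (6.59%).

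**Figure D5:**
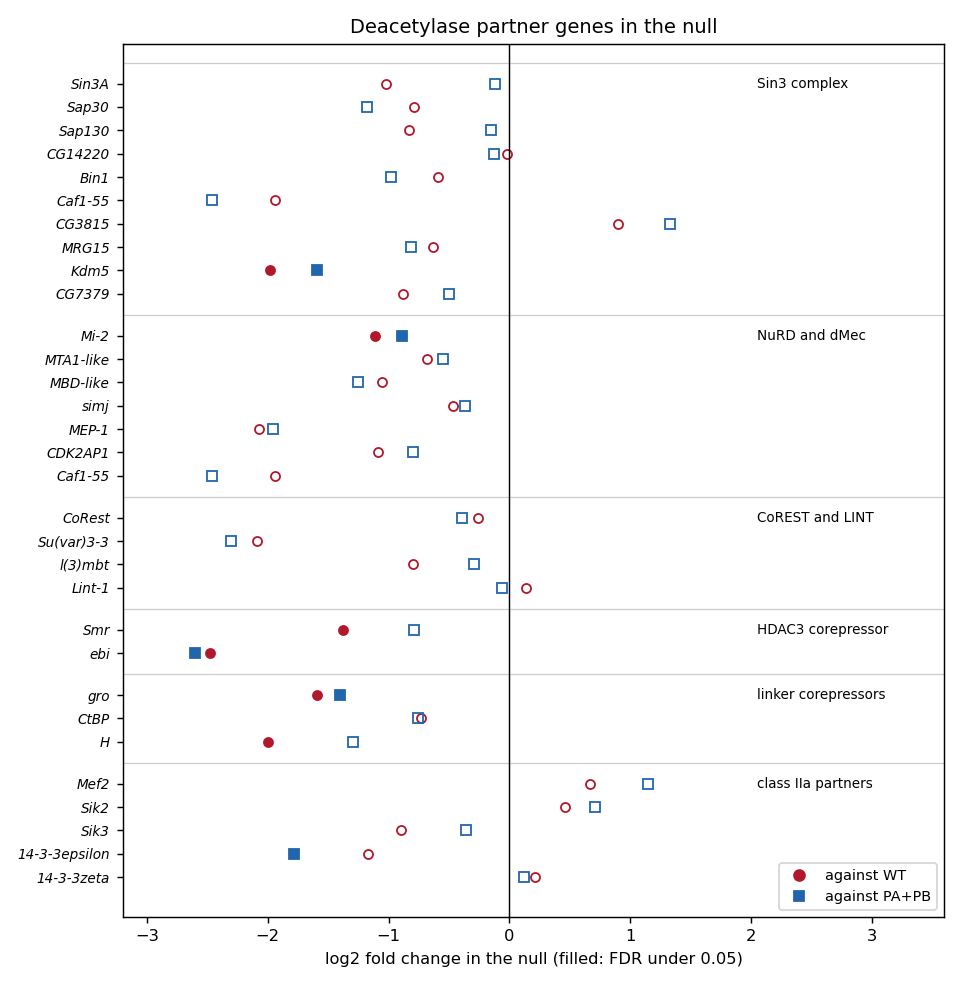
Log2 FC in the null against WT (circles) and against PA+PB (squares) for the tested partner genes of HDAC1, HDAC3 and HDAC4 in 6 groups, filled where called (Caf1-55 belongs to both the Sin3 and the NuRD group). Kdm5, Mi-2, ebi and gro are filled in both contrasts and all lie below 0.

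Markers of embryonic tissues and of maternal RNA also differed between genotypes. The summed CPM of osk, pgc and bcd, which mark maternal RNA, was 5.5 to 9.17 in the null, 54 to 155 in PA, 0 to 159 in PB, 35.6 to 261 in PA+PB and 183 to 396 in WT, and pgc was at 0 in all PA libraries. HDAC1 and Sirt7 were, like this sum, lower in every null library than in every control library, as were 14% of all tested genes. Most of the sum was bcd, at 5.46 to 8.17 CPM in the null, 34.2 to 241 in PA+PB and 168 to 369 in WT. For pgc, null (0 to 0.884 CPM) and PA+PB (0 to 10.3 CPM) libraries overlapped, and nos, also listed, was not matched by name. The summed CPM of 4 muscle markers was 4280 to 6290 in the null, 413 to 1930 in PA, 2010 to 21800 in PB, 607 to 5280 in PA+PB and 703 to 14400 in WT. That of 3 hemocyte markers was 225 to 307 in the null, 171 to 528 in PA, 408 to 675 in PB, 28.5 to 222 in PA+PB and 75 to 253 in WT. That of 4 neuronal markers was 619 to 814 in the null, 238 to 680 in PA, 549 to 1340 in PB, 58.2 to 654 in PA+PB and 274 to 614 in WT. That of 2 glial markers was 99.4 to 125 in the null, 53.1 to 104 in PA, 88.9 to 186 in PB, 2.44 to 97 in PA+PB and 25.5 to 101 in WT. The part of tissue makeup, maternal RNA and embryo age in the levels of the deacetylase genes was not tested.

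Several of the genes overlap a gene on the other strand. Sirt4 shares 978 of its 1253 exonic bases with asRNA:CR45520, which had 0 counts in 17 libraries and at most 13 in the others. HDAC6 shares 1106 of 5251 exonic bases with asRNA:CR44998, Sirt1 shares 509 of 3809 with DnaJ-H, and HDAC1 shares 170 of 2124 with lncRNA:CR45438. By its default parameters, which were used, htseq-count reads strand. Whether the library kit kept the strand is not given in the sources used here, so reads of these stretches cannot be assigned with certainty.

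For each of the 8 genes the gene most like it in log2 CPM over the 20 libraries was found, as a description without a test. HDAC1 was most like Uba2 (Pearson's r = 0.95), HDAC4 most like Ifrd1 (r = 0.85), HDAC6 most like CG30291 (r = 0.82) and Sirt1 most like Pcf11 (r = 0.86). For the poorly counted genes these were lncRNA:CR44206 with Sirt2 (r = 0.97), Tmhs with Sirt4 (r = 0.98) and CG31251 with Sirt6 (r = 0.98), and Sirt7 was most like CG8944 (r = 0.99). By Spearman's rho the nearest gene was the same for HDAC1, Sirt2, Sirt6 and Sirt7 and another for the other 4. The libraries share depth and detection, which differ between genotypes.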

How the data were processed

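RNA from pools of whole embryos was sequenced from ribodepleted libraries. The authors trimmed the reads with Trimmomatic, mapped them to dm6 with HISAT2 and made the deposited counts per gene with htseq-count (HTSeq 0.11.1, default settings), without normalization. In the table each header name is offset by 1 cell from its values, so columns were matched through the order of the header names. Of 17807 gene rows, 17710 matched Ensembl release 115, which gave symbols and positions. The 2 transgene rows and 5 summary values of htseq-count were left out, and 138 rRNA genes were removed.

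Tests used edgeR (4.0.16) under R (4.3.3), with filterByExpr, TMM and quasi-likelihood F-tests over all 20 libraries with genotype and 1 factor of unwanted variation, estimated from replicates after RUVSeq's RUVs. FDR values are Benjamini-Hochberg over 10904 genes. Each SE is the log2 fold change divided by the square root of F. DESeq2 (1.42.0) was an alternative. P-values measure the spread between pools of embryos. The code was tested on simulated data. The simulated unwanted factor was drawn without regard to genotype or detection, so that test does not bear on the changes of sign reported above. The 9 genes, the partner lists and the markers were chosen with earlier results of these data known. All 9 genes are described, and partner genes are named where called, with at most 2 well-counted examples per list. Likeness was taken on log2 CPM, prior count 2. No sequences are shown.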

Additional observations from a re-analysis of the deposited data

Results flagged for a closer look

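Of 40 groups of 4 libraries (8 genes in 5 genotypes), 6 had a highest or lowest library far from the others by Dixon's limit. Chance alone gives about 1 in 20 for normally distributed values. Groups with libraries at 0 are not of that kind, so the 6 of 40 cannot be set against this rate. Sirt1 had 177 CPM in null replicate 2, with the other null libraries at 214 to 221 CPM. Sirt2 had 23.3 CPM in PB replicate 4, against 0 to 0.724 CPM in the other PB libraries. Sirt4 had 2.23 CPM and Sirt6 had 6.3 CPM in PA replicate 3, where the other PA libraries were at 0. Sirt6 had 12.6 CPM in PB replicate 4, where the other PB libraries were at 0, and 13.2 CPM in PA+PB replicate 1, with the others at 2.93 to 4.57 CPM. PA replicate 3 and PB replicate 4 were the libraries of their genotypes with the most genes detected, 8740 and 10547, and the part of detection in these values was not tested.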

How the results depend on the processing

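No member was called in the first place, so no call could reverse, but uncalled values changed sign (Sirt2, null against WT, was −1.25 with the factor and 1.18 without it). The count of the 8 genes called for the null against both controls moved from 0 to 1 (Sirt7) with DESeq2's Wald test, with only the compared groups in the fit and without the 7 libraries under 8000 genes, and to 2 (HDAC1 and Sirt7) with only the compared groups and no factor. For PA against null it moved to 1 (HDAC1) with no factor, with 2 factors and with only the compared groups, with or without the factor. In that order 5.64%, 5.35%, 10.8% and 21.4% of all genes were called, against 2.14% in the main fit. HDAC1 was not called with no filter, where 0.211% of all genes were, nor with DESeq2's Wald test, where 8.85% were. With DESeq2's Wald test the count moved to 1 for PB against both controls (HDAC4, with 9.31% of all genes called) and for PB against PA (HDAC1, with 12.8%). Leaving out single libraries gave 0 to 1 for the null against both controls (1 without PB replicate 1), for PA against null and for the interaction, and 0 for the other comparisons. The fits with only the compared groups and no factor, and without the 7 libraries, were added after seeing the data, and leaving out the 7 libraries keeps 1 PA and 1 PB library, assumed to vary like the others.

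Over all tested genes, those called for the null against both controls numbered 294, and 137 with DESeq2's size factors, 56 with no filter, 259 with no factor, 495 with 2 factors, 629 with DESeq2's Wald test, 784 with only the compared groups, 1286 with these and no factor, and 854 without the 7 libraries. Replicate numbers did not pair the libraries (same-number deviations had a median r of 0.01, and 4 of 20 libraries were nearest their own number). With the replicate block 0 of the 8 genes were called in each comparison and 219 genes for the null. Of 786 fold changes under other settings 764 stayed on the same side of the threshold and 22 passed it, and 110 that were not called changed sign. The causes were not tested. For Sirt2, Sirt4 and Sirt6 no contrast was called in any fit, and the sign of the null against WT depended on the fit. The missing calls do not show equal levels, since Sirt2 had a higher CPM in every null library than in every other library.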
